A study of Homo sapiens
Mus musculus and Mus musculus and Homo sapiens with 3 samples.

Results

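A set of 9 genes that bind, make, take up, break down or read retinoic acid was followed through 4 cell states of human and mouse cultures that were turning into spinal motor neurons. The genes were CRABP1, CRABP2, CYP26A1, CYP26B1, DHRS3, ALDH1A2, RARA, RARB and STRA6. They were taken by name as 9 of the 15472 gene symbols present in all 4 count tables, with mouse symbols read in upper case. Human cells were the induced pluripotent line NCRM1 (human replicate 1) and RUES1 (human replicate 2, which the labels also call induced pluripotent), and mouse cells were C57BL/6 embryonic stem cells (mouse replicates 1 and 2). All groups had undergone motor neuron differentiation in vitro as embryoid bodies, carried a lentiviral barcode behind GFP under the broadly active CAGGS promoter, and had been sorted for GFP before droplet-based 3' single-cell RNA sequencing. Human and mouse replicates numbered 1 were the parts of 1 mixed library, while the replicates numbered 2 were libraries of their own. Human cultures were sampled every 48 h and mouse cultures every 24 h, and the day of a given cell is not known here. The labels do not say whether retinoic acid was in the medium, and each human replicate was a different line, so the human spread also holds a difference between lines.

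Retinoic acid is a small lipid signal made from vitamin A that diffuses between cells, enters the nucleus and acts through receptors that sit on DNA. In the embryo the mesoderm beside the neural tube makes it, and in the spinal cord it promotes neurogenesis and sets positional identity along the head-to-tail axis. Because cells also bind, reduce and oxidise retinoids, the level of the signal inside a cell depends on a balance of carriers and enzymes. Among the genes followed here, CRABP1 and CRABP2 encode small proteins that carry retinoic acid in the cytoplasm. CYP26A1 and CYP26B1 encode cytochrome P450 enzymes that break it down, and DHRS3 encodes a reductase that turns its precursor retinaldehyde back into retinol. ALDH1A2 encodes the dehydrogenase that makes retinoic acid from retinaldehyde, STRA6 a membrane receptor that takes up retinol, and RARA and RARB nuclear receptors that are activated by retinoic acid.

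In the human genome (RefSeq, GRCh38.p14) CRABP1 lies on chromosome 15 from 78340353 to 78348225 and CRABP2 on chromosome 1 from 156699606 to 156705784. In the mouse (GENCODE vM21, GRCm38) Crabp1 lies on chromosome 9 from 54764748 to 54773110 and Crabp2 on chromosome 3 from 87948666 to 87953376. CYP26A1 lies on human chromosome 10 from 93073475 to 93077885 and mouse chromosome 19 from 37697798 to 37701536. CYP26B1 lies on human chromosome 2 from 72129238 to 72147862 and mouse chromosome 6 from 84571414 to 84593908. DHRS3 lies on human chromosome 1 from 12567910 to 12618210 and mouse chromosome 4 from 144892827 to 144928209, and ALDH1A2 on human chromosome 15 from 57953429 to 58065711 and mouse chromosome 9 from 71215789 to 71296243. STRA6 lies on human chromosome 15 from 74179466 to 74212259 and mouse chromosome 9 from 58063788 to 58153996. RARA lies on human chromosome 17 from 40309180 to 40357643 and mouse chromosome 11 from 98927818 to 98974942, and RARB on human chromosome 3 from 24829321 to 25597932 and mouse chromosome 14 from 16430839 to 16819156. Levels are given in CPM, the UMIs of a gene per 1000000 UMIs of the 15472 symbols in the same sum, and they cover a whole gene, so that no exon or transcript form is told apart.

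The CRABP1 and CRABP2 results below go in different directions in mouse, and the 2 genes encode close relatives, so their coding sequences were compared first. The first 90 coding bases of the mouse transcripts (GENCODE vM21, both on the plus strand, 5′ to 3′) are shown with capitals at the 30 positions where they differ.
Crabp1: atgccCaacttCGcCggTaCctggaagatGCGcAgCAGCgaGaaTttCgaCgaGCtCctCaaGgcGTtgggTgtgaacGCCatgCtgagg
Crabp2: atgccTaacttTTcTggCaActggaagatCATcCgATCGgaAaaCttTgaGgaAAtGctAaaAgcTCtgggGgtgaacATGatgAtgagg
Over the whole alignment of the coding sequences, 70.3% of 414 columns were identical. No stretch of 31 bases was shared by the annotated mouse transcripts of the 2 genes, nor by those of Cyp26a1 and Cyp26b1 or of Rara and Rarb. The same comparison was not made for human transcripts.

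Cells were placed in states by the genes they contained, after thinning each to 7000 UMIs. SOX2-positive progenitors had SOX2 without NEUROG2, and NEUROG2-positive cells were in neurogenic transition. Motor neurons had at least 3 UMIs of the neuronal gene STMN2 with ISL1 or MNX1, and other neurons had STMN2 without ISL1 and MNX1. The states held 526 to 870, 357 to 515, 100 to 288 and 97 to 198 cells per replicate, and 170 to 838 further cells fell in no state. Total depth was 28577630 and 32803173 UMIs in human replicates 1 and 2, and 38166382 and 83969715 in mouse replicates 1 and 2. The 6 motor neuron markers that were no gate genes summed to 333 to 406 CPM in human motor neurons, against 7.57 to 12.5 in human progenitors, and to 719 to 1045 in mouse motor neurons, against 7.63 to 30.98 in mouse progenitors. Other neurons were not free of them, with 186 to 341 CPM in human and 285 to 462 in mouse. Whether that state holds motor neurons whose ISL1 and MNX1 went uncounted was not tested. Human motor neurons kept 1462 to 1563 CPM of the progenitor marker list, against 78.8 to 142 in mouse motor neurons, and the part of this in the species differences was not tested. CHAT, the enzyme that makes acetylcholine, was at 0 in motor neurons of human replicate 1, though not in its other neurons. The neuronal gene TUBB3 was at 0 in every state of human replicate 1, neurons included, and in no state of human replicate 2. Whether a 0 in human replicate 1 comes from the gene annotation of that part was not tested. Markers of neural crest or mesenchyme stood apart in human replicate 2, where the 9 genes summed to 577 CPM in SOX2-positive progenitors, against 31.7 in human replicate 1 and 3.24 to 34.5 in mouse. In the cells of no state they reached 759 and 2904 CPM in human replicates 1 and 2.

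**Figure D1:**
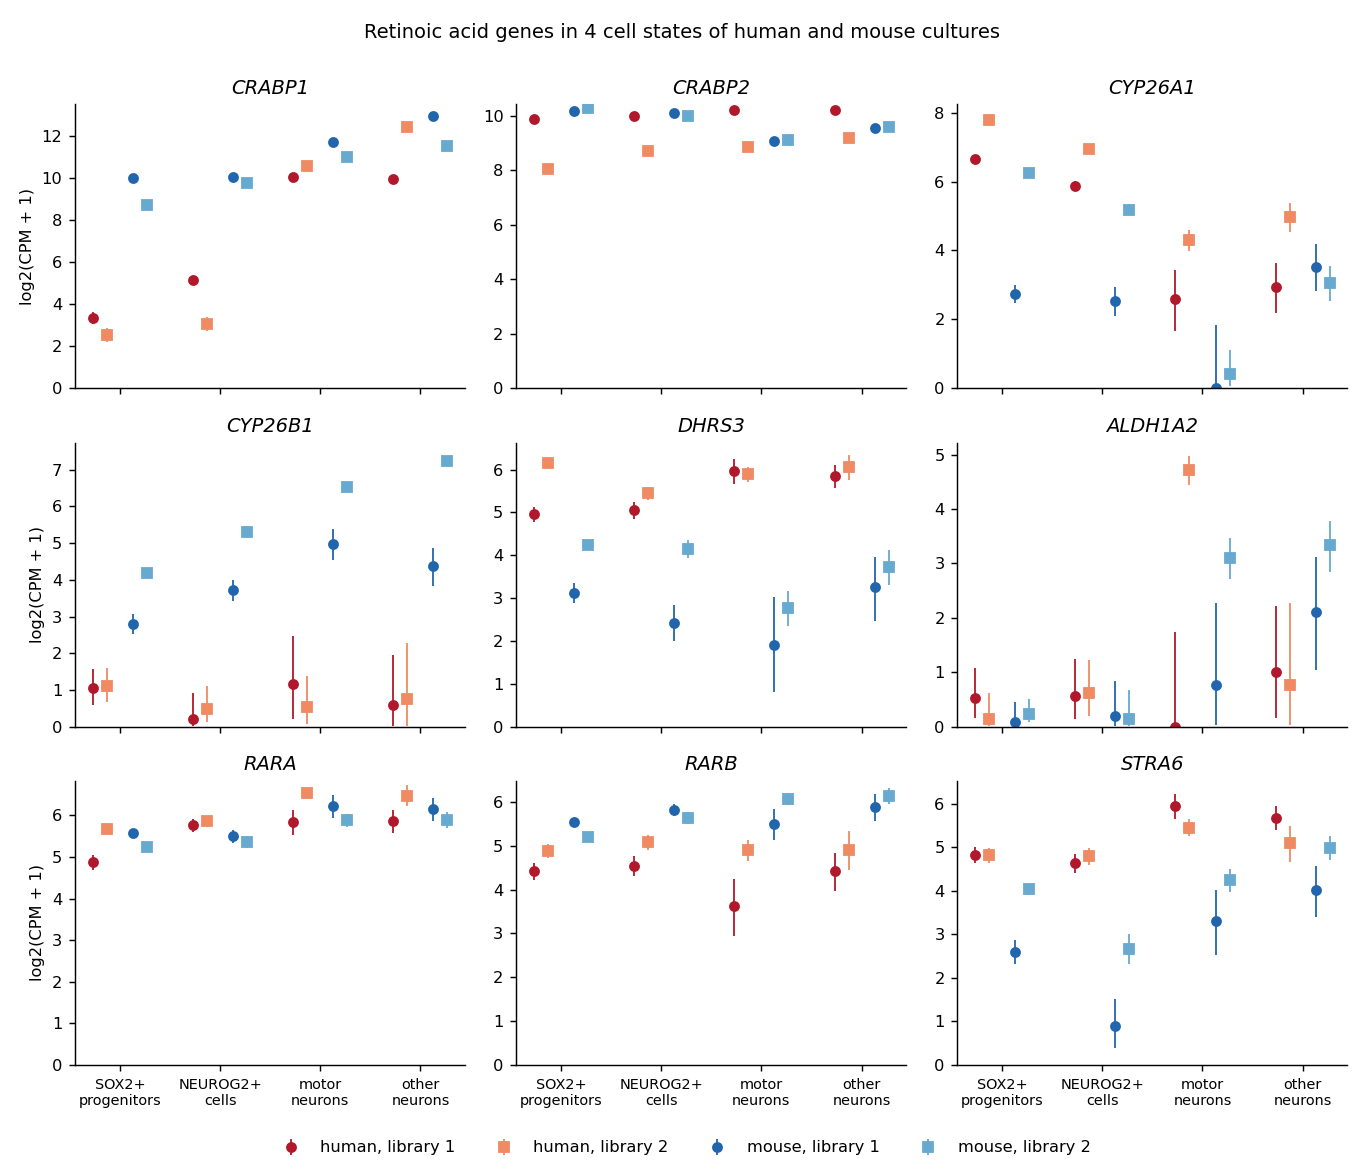
Level of each gene as log2(CPM + 1) in the 4 cell states, with a point per library part, library 1 or 2 standing for replicate 1 or 2 (human left of mouse), and exact 95% Poisson intervals, which cover counting error only. CRABP1 is near the axis in human progenitors and high in human neurons, CYP26A1 declines from progenitors to motor neurons in both species, and CYP26B1 is near 0 in all human states.

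CRABP1 was far lower in human than in mouse cells before neurons formed, and it rose in the motor neurons of both species. Human SOX2-positive progenitors had 9.30 and 4.87 CPM in replicates 1 and 2, against 1014 and 416 in mouse SOX2-positive progenitors. In NEUROG2-positive cells the levels were 34.2 and 7.37 in human and 1059 and 872 in mouse. The groups did not overlap in either state, and the difference of -6.84 ± 0.81 (log2, human over mouse, SE, n = 2 each) in progenitors and of -5.55 ± 0.88 in NEUROG2-positive cells passed the test (edgeR, adjusted p = 0.00369 and 0.00513).
Within the mixed library alone, CRABP1 was 109-fold lower in human than in mouse progenitors (95% interval of counting 88.3 to 136), so that the difference was also present where both species shared a library.

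In motor neurons the gap was small. CRABP1 averaged 1289 ± 317 CPM in human and 2664 ± 910 in mouse motor neurons (SD, n = 2 each). Human replicates had 1065 and 1513, against 3307 and 2020 in mouse motor neurons, a log2 difference of -1.05 ± 0.51 that did not pass (adjusted p = 0.208). The other neurons had 974 and 5490 in human and 7801 and 2915 in mouse, and here the species overlapped (-0.75 ± 0.89, adjusted p = 0.615).
Set against progenitors of the same replicate, CRABP1 was higher in human motor neurons by 7.33 ± 0.89 on the log2 scale (adjusted p = 3.06e-05) and in mouse motor neurons by 1.72 ± 0.65 (adjusted p = 0.0389). The human change exceeded the mouse change by 5.60 ± 1.04 (adjusted p = 0.00302). The mouse call was lost with DESeq2 (adjusted p = 0.100) and without mouse replicate 2 (adjusted p = 0.194), and the human call held under every alternative run.

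The share of cells that contained CRABP1 showed the same contrast. Of human motor neurons 45.6% and 37.8% had at least 1 UMI at the common depth of 7000 UMIs, against 4.08% and 2.28% of human SOX2-positive progenitors. In mouse the shares were 72.0% and 45.3% of motor neurons, against 76.0% and 52.2% of progenitors, so the mouse share was not higher in motor neurons of either replicate although the level was. With all UMIs of a cell the human shares were 48.8% and 43.8% of motor neurons and 6.40% and 5.89% of progenitors. The human progenitor shares come from cells with a median of 13510 and 20661.5 UMIs, and the motor neuron shares from cells with 9991.5 and 16802.5.
CRABP1 was also uneven among neurons. After thinning each cell to 7000 UMIs, the 10% of human motor neurons richest in CRABP1 held 70.9% and 88.8% of its UMIs in the state, and single cells reached 147 and 202 UMIs. In mouse motor neurons the corresponding shares were 42.5% and 73.2%. CRABP2 was spread more evenly, with 28.2% and 30.8% of its UMIs in the richest 10% of human motor neurons and 26.1% and 26.7% in mouse.

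**Figure D2:**
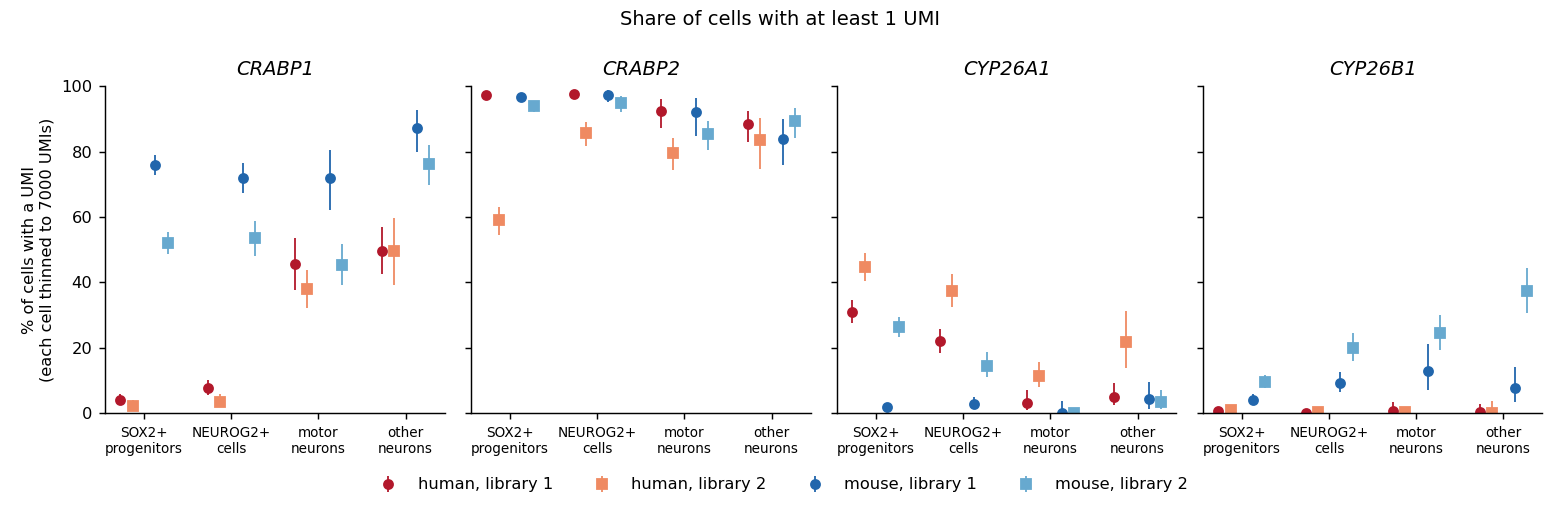
Share of cells with at least 1 UMI of the binding proteins and the degrading enzymes in each state, after thinning each cell to 7000 UMIs, with exact 95% Clopper-Pearson intervals and a point per library part (human left of mouse). CRABP1 was found in 2.28% to 7.57% of human progenitors and NEUROG2-positive cells and in 37.8% and 45.6% of human motor neurons, while CRABP2 was found in most cells of every state shown.

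CRABP2 fell in mouse motor neurons, and its change in human ones did not pass. In mouse it fell to 536 and 552 CPM in motor neurons, against 1157 and 1238 in SOX2-positive progenitors, a log2 change of -1.40 ± 0.17 (adjusted p = 2.21e-05). In human it was 1165 and 457 in motor neurons, against 938 and 259 in progenitors, and the change of 0.39 ± 0.17 did not pass (adjusted p = 0.0828).
Both human replicates were higher in motor neurons, and the change passed with size factors in place of TMM (adjusted p = 0.0446) and with the lower STMN2 gate (adjusted p = 0.0430). It also passed without mouse replicate 2. Without human replicate 1 it was 0.80, on 1 human library part. The human change exceeded the mouse change by 1.79 ± 0.24 (adjusted p = 0.000488). Human replicates differed more from each other than mouse replicates did, with replicate 2 below replicate 1 in all 4 states. Between species no state passed for CRABP2, and without human replicate 1 the progenitor difference was -2.67, on 1 human library part.
In the cells of no state of human replicate 2, where the mesenchyme markers were highest, CRABP2 was 96.8 CPM, against 616 in those of human replicate 1. The part of those markers' cells in the gap between the human replicates was not tested.

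The degrading enzymes went in opposite directions in mouse motor neurons, while in human ones only CYP26A1 changed past the threshold. CYP26A1 fell in motor neurons of both species relative to progenitors. It had 5.03 and 18.6 CPM in human motor neurons, against 100.5 and 220 in human SOX2-positive progenitors (log2 change -3.87 ± 0.53, adjusted p = 7.86e-05). Mouse motor neurons had 0 and 2 UMIs in all, against 86 and 2121 UMIs in mouse progenitors, and this also passed (adjusted p = 4.57e-05). The cells of no state had 102 and 344 CPM in human and 3.56 and 89.0 in mouse.
Against the floor of 3 UMIs, CYP26A1 was at least 2.75-fold lower in motor neurons than in progenitors of mouse replicate 1. In mouse replicate 2, on the 2 UMIs in motor neurons, it was 233-fold lower, with a counting interval from 64.5 to 1927. NEUROG2-positive cells stood between, at 58.1 and 123 CPM in human and 4.79 and 35.5 in mouse, and did not differ from progenitors past the threshold in either species (adjusted p = 0.748 and 0.639). The human change was -0.81 without mouse replicate 1 and -0.83 without mouse replicate 2, and both passed. The mouse change without mouse replicate 1 was -1.06, on 1 mouse library part.

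The 2 mouse replicates were far apart in CYP26A1. Human progenitors had 100.5 and 220 CPM, against 5.69 in replicate 1 and 75.2 in replicate 2 of mouse progenitors, so the groups did not overlap but the species difference of 1.81 ± 0.94 did not pass (adjusted p = 0.186). With the replicate number as a block it became 2.61 (adjusted p = 0.0294), and without mouse replicate 2 it was 4.46, on 1 mouse library part. In motor neurons CYP26A1 was called higher in human than in mouse (adjusted p = 0.0204), a call that was lost without either mouse replicate and with 3 other ways of choosing the cells (adjusted p from 0.0536 to 0.0951). In replicate 2 human motor neurons had 84 UMIs and mouse motor neurons 2, a 57.7-fold difference with a counting interval from 15.5 to 484.
Within human progenitors, OLIG2 marks those that give rise to motor neurons. CYP26A1 was 80.7 and 154 CPM in OLIG2-positive human progenitors and 126 and 289 in OLIG2-negative ones, a change of -0.82 ± 0.10 (adjusted p = 0.00828). The call was lost when cells were gated on all their UMIs (adjusted p = 0.0627). It was also lost without the block, where 0 of 10780 tested genes were called. The 9 neural crest or mesenchyme markers summed to 15.1 and 56.1 CPM in OLIG2-positive human progenitors and 52.7 and 1125 in OLIG2-negative ones. With cells carrying off-target markers left out the change was -0.64 and still passed (adjusted p = 0.0356). In mouse the values were 4.84 and 60.7 in OLIG2-positive progenitors and 6.11 and 78.4 in OLIG2-negative ones, which did not pass (-0.37 ± 0.13, adjusted p = 0.381). The difference between the species in this change was not tested.

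CYP26B1 was almost absent from human cells and rose in mouse neurons. Human motor neurons had 2 and 2 UMIs in all, or 1.26 and 0.443 CPM, against 30.4 and 90.5 CPM in mouse motor neurons. In replicates 1 and 2 the human level was 24.2-fold lower (counting interval 6.31 to 206) and 204-fold lower (56.3 to 1691). Human progenitors had 1.08 and 1.17 CPM, against 5.96 and 17.3 in mouse progenitors.
The species difference passed in each of the 4 states (adjusted p = 0.0110 in progenitors, 0.00255 in NEUROG2-positive cells, 0.0104 in motor neurons and 0.0181 in other neurons). In other neurons it was lost without either human replicate, and in progenitors without mouse replicate 2 (adjusted p = 0.0988). In mouse, the gene was higher in motor neurons than in progenitors by 2.09 ± 0.28 (adjusted p = 3.89e-05), and each mouse replicate showed about the same fold, 5.10 in replicate 1 and 5.24 in replicate 2. NEUROG2-positive mouse cells had 12.1 and 38.6 CPM, above progenitors in both replicates by 1.11 ± 0.26, which missed the threshold (adjusted p = 0.0567). It passed with no filter on low counts (adjusted p = 0.0279), with off-target cells left out (adjusted p = 0.0418) and with doublets kept (adjusted p = 0.0430). Without mouse replicate 1 it was 1.18, on 1 mouse library part.
Of mouse neurons outside the motor neuron gate, 7.69% and 37.4% had a CYP26B1 UMI, against 13.0% and 24.4% of mouse motor neurons. Human cells of the same states had it in at most 0.625% of cells. These shares are of cells thinned to 7000 UMIs.

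DHRS3, the retinaldehyde reductase, was higher in human cells than in mouse cells in every state. Human motor neurons had 61.6 and 58.3 CPM, against 2.76 and 5.81 in mouse motor neurons, a log2 difference of 3.77 ± 0.53 (adjusted p = 0.0111) that held under every alternative run. In progenitors the values were 29.9 and 70.5 in human and 7.74 and 18.0 in mouse (1.73 ± 0.48, adjusted p = 0.0373), and in other neurons 56.5 and 65.8 in human and 8.56 and 12.2 in mouse (2.69 ± 0.44, adjusted p = 0.0167).
The progenitor call was lost without human replicate 2 or either mouse replicate, and the call in other neurons without either human replicate. The NEUROG2-positive difference of 1.74 ± 0.56 missed the threshold (adjusted p = 0.0528) and passed with the replicate block (1.94, adjusted p = 0.0182). In mouse DHRS3 fell by 1.88 on the log2 scale in motor neurons relative to progenitors (SE 0.37, adjusted p = 0.000911), on 4 and 36 UMIs, and this was lost without mouse replicate 2 (adjusted p = 0.116). In human it did not change past the threshold (0.17 ± 0.26, adjusted p = 0.632), with replicate 1 higher and replicate 2 lower in motor neurons, and the human change exceeded the mouse change by 2.05 ± 0.46 (adjusted p = 0.00866).

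ALDH1A2, the enzyme that makes retinoic acid, was carried by few cells. Human motor neurons had 0 and 114 UMIs in replicates 1 and 2, against 4 and 1 in human progenitors. Mouse motor neurons had 1 and 47 UMIs, against 1 and 5 in mouse progenitors. Both changes were called (adjusted p = 0.00258 in human and 0.00312 in mouse), and both rested on replicate 2.
Without human replicate 2 the human change had the opposite sign (log2 -4.99, adjusted p = 0.489), and without mouse replicate 2 the mouse change did not pass (adjusted p = 0.601). In replicate 2 alone, motor neurons were above progenitors 259-fold in human (counting interval 45.6 to 10330) and 42.7-fold in mouse (17.1 to 138). Only 21 of 288 human and 8 of 258 mouse motor neurons of replicate 2 carried the transcript. The cells of no state had 7.22 and 8.52 CPM in human and 0 and 5.27 in mouse.

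Motor neurons with and without ALDH1A2 were set side by side after these values had been seen, and no test was run. FOXP1, a transcription factor that marks motor neurons of the limb-innervating lateral column in mouse and chick embryos, was 1074 CPM in the 21 ALDH1A2-positive human cells of replicate 2 and 313 in the 267 cells without it. In mouse replicate 2 it was 951 in the 8 positive cells and 144 in the 250 others. LHX3, a transcription factor of newly formed and medial column motor neurons, had 0 UMIs in the positive human cells, against 85.5 CPM in the others, and 26.4 CPM in the positive mouse cells, against 301 in the others.
The positive cells thus had more FOXP1 and less LHX3 in both species. They also had less CRABP1, at 622 CPM against 1597 in human replicate 2 and 823 against 2066 in mouse replicate 2. Among the cells of no state, those with ALDH1A2 carried more of the collagen gene COL1A2, at 602 and 1436 CPM in human replicates 1 and 2, against 168 and 574 in the rest. In mouse replicate 2 it was 181 against 57.1. LUM, another mesenchyme marker, was 251 and 879 in human, against 160 and 563, but 3.70 against 11.7 in mouse replicate 2. The epithelial marker KRT8 was also higher in human replicate 1 (169 against 49.1) and mouse replicate 2 (281 against 59.4). In human replicate 2 KRT8 was lower (17.7 against 62.4). Summed over motor neurons, the list of mesodermal and meningeal sources of retinoic acid reached 33.9 CPM in human replicate 2, of which ALDH1A2 itself gave 25.3.

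**Figure D3:**
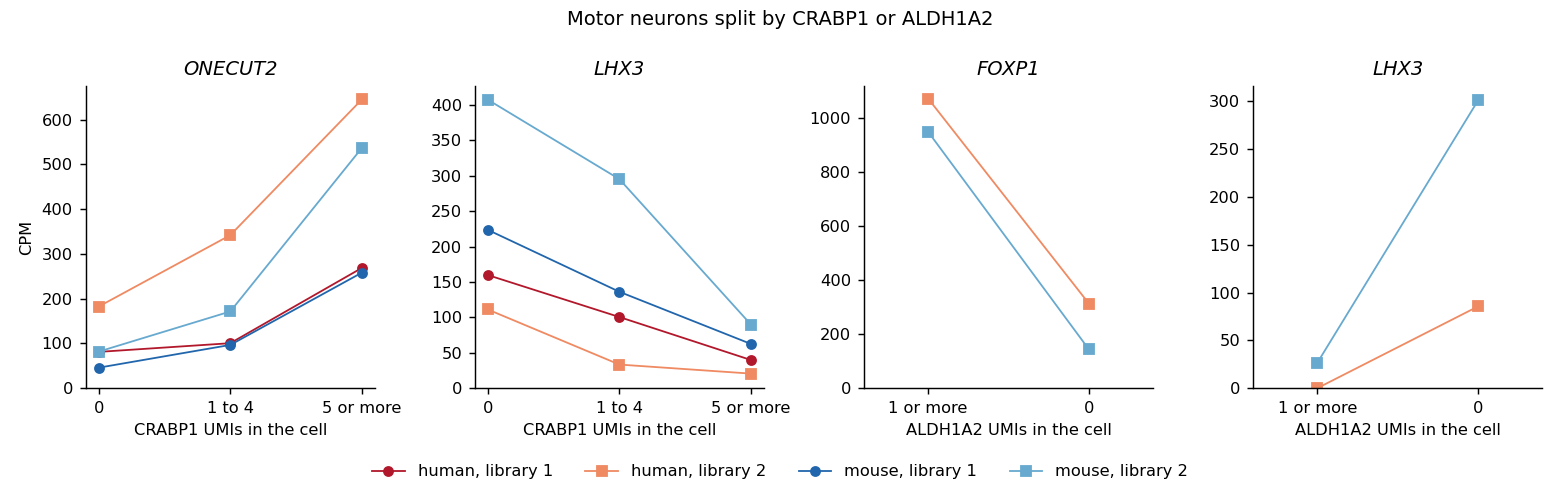
Levels in motor neurons as CPM, with ONECUT2 and LHX3 by the number of CRABP1 UMIs in a cell after thinning for 4 library parts (left pair of panels), and FOXP1 and LHX3 by the presence of ALDH1A2 in the replicates numbered 2 (right pair). ONECUT2 increases and LHX3 decreases with CRABP1 in each library part, and ALDH1A2-positive cells lie at high FOXP1 and low LHX3.

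The same kind of description was made for CRABP1, again after its values had been seen. At least 5 CRABP1 UMIs were found in 39 and 52 human and 55 and 65 mouse motor neurons. Cells were classed after thinning to 7000 UMIs, while levels use all UMIs. Among those with at least 5, ONECUT2, a transcription factor of spinal neurons, was 269 and 645 CPM in human and 258 and 537 in mouse. In motor neurons with no CRABP1 UMI it was 81.1 and 182 in human and 45.8 and 81.7 in mouse.
LHX3 went the other way, at 39.8 and 20.6 in human and 62.5 and 89.7 in mouse cells rich in CRABP1, against 160 and 111 in human and 224 and 408 in mouse cells without it. The ONECUT2 order also held in the other neurons, at 374 and 781 in human and 530 and 820 in mouse cells rich in CRABP1, against 67.1 and 130 in human and 64.9 and 240 in mouse cells without it. The LHX3 order held in other neurons of 3 library parts but not in mouse replicate 1, where LHX3 was 86.8 in cells rich in CRABP1 and 64.9 in cells without it.

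STRA6, the retinol uptake receptor, was higher in human cells in 2 states. NEUROG2-positive cells had 23.9 and 26.7 CPM in human and 0.846 and 5.36 in mouse (2.94 ± 0.70, adjusted p = 0.0198), and motor neurons had 61.0 and 43.0 in human and 8.98 and 17.9 in mouse (1.99 ± 0.53, adjusted p = 0.0457). The motor neuron call was lost when any library part was left out, and the NEUROG2-positive call without mouse replicate 1 (adjusted p = 0.0526).
Along the mouse path STRA6 dipped, since NEUROG2-positive cells were below SOX2-positive progenitors, at 0.846 and 5.36 against 5.03 and 15.4. The log2 change was -1.71 ± 0.30 (adjusted p = 0.00796). That call was lost without the block (-1.69), where 0 of 11833 tested genes were called. Leaving out either human replicate ended that call (adjusted p = 0.0655 and 0.0656), though it changed neither mouse value. In human the levels were 23.9 and 26.7 in NEUROG2-positive cells and 27.5 and 27.2 in progenitors, a change of -0.10 ± 0.23 that did not pass, and the difference between the species did not pass either (1.61 ± 0.38, adjusted p = 0.268). STRA6 was higher in human motor neurons than in progenitors by 0.75 ± 0.24 (adjusted p = 0.0201). That human call was lost without either human replicate (adjusted p = 0.271 and 0.156) and when cells were gated on all their UMIs (adjusted p = 0.0937).

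Of the receptors, RARA rose in human motor neurons. It had 56.6 and 91.9 CPM in human motor neurons, against 28.2 and 50.2 in human progenitors (0.81 ± 0.18, adjusted p = 0.00238), a call that was lost without the library part as a block (0.80, adjusted p = 0.13). In mouse it had 73.2 and 57.8 in motor neurons, against 46.5 and 37.1 in progenitors (0.38 ± 0.17), which did not pass (adjusted p = 0.0769) except with size factors (adjusted p = 0.0441) or the lower STMN2 gate (adjusted p = 0.0194). The difference between the species in this change did not pass (0.43 ± 0.25, adjusted p = 0.256).
RARB was lower in human than in mouse cells in every state without passing the test. Human motor neurons had 11.3 and 28.8, against 44.2 and 66.0 in mouse motor neurons (-1.43 ± 0.51, adjusted p = 0.105), and with the replicate block this passed (-1.50, adjusted p = 0.0406). RARB did not change past the threshold between motor neurons and progenitors in human (-0.37 ± 0.27, adjusted p = 0.277) or mouse (0.23 ± 0.23, adjusted p = 0.430). Neither receptor passed between species in any of the 4 states with edgeR, although RARB passed in all 4 when the 16 sums were fitted together (adjusted p from 0.00767 to 0.0408).

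**Figure D4:**
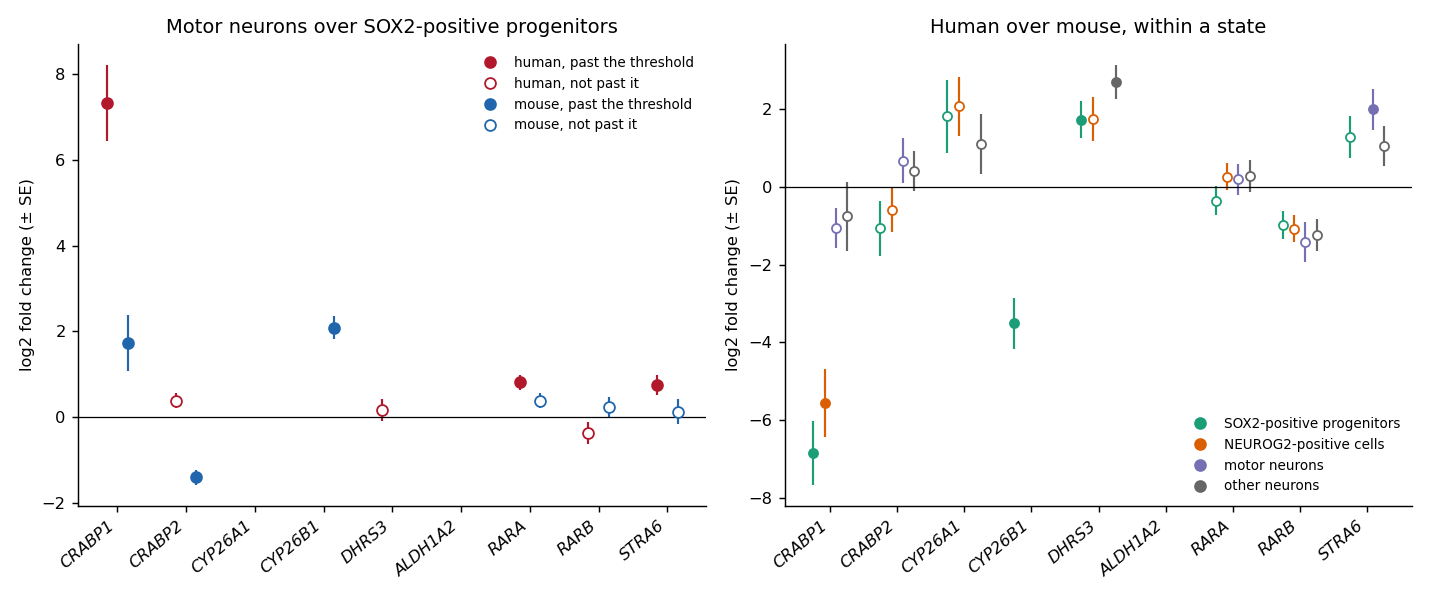
Fitted log2 fold changes (± SE) of motor neurons over SOX2-positive progenitors for human and mouse (left) and of human over mouse within each state (right). Filled points passed an adjusted p of 0.05, and a point is drawn only where each library part had at least 10 UMIs in each sum compared. CRABP1 has the largest drawn change in human motor neurons (7.33) and the largest drawn species difference, in progenitors (-6.84).

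Counted together, the share of the 9 genes called between motor neurons and progenitors was close to the share of all genes. In human 5 of 9 were called, 4 higher and 1 lower, where 45.0% of 11833 tested genes were called, 19.5% higher and 25.5% lower. In mouse 6 of 9 were called, 3 in each direction, where 56.1% were called, 26.3% higher and 29.8% lower. The change differed between the species for 4 of 9 genes, CRABP1, CRABP2, CYP26B1 and DHRS3, against a background of 18.2%.
Without the library part as a block, 3 of 9 were called in each species and 0 of 9 in the difference between them, where 15.0% of all genes were called in human, 23.6% in mouse and 0.744% in the difference. The calls lost were those of RARA and STRA6 in human, of CRABP1, CRABP2 and CYP26B1 in mouse, and of all 4 genes in the difference. The difference was also lost for CYP26B1 without either human replicate or with off-target cells left out, and for DHRS3 without human replicate 1 or mouse replicate 2. Between NEUROG2-positive cells and progenitors 0 of 9 were called in human (edgeR, background 0.955%, 3 at an unadjusted p under 0.05, 0 with DESeq2) and 1 of 9 in mouse (background 1.85%), and 0 of 9 in the difference between the species (edgeR, background 0.0930%, 4 unadjusted, 0 with DESeq2). Between other neurons and motor neurons 0 of 9 were called in human (edgeR, background 0.431%, 1 at an unadjusted p under 0.05, 0 with DESeq2) and 0 of 9 in mouse (edgeR, background 1.08%, 3 unadjusted, and 1 with DESeq2, which was CYP26A1), and 0 of 9 in the difference between the species (edgeR, background 0.0254%, 3 unadjusted, 0 with DESeq2). Other neurons of mouse replicates 1 and 2 had 16 and 26 CYP26A1 UMIs, against 0 and 2 in motor neurons. The other neurons also carried motor neuron markers, at 186 to 341 CPM in human and 285 to 462 in mouse, which limits what this comparison can show.

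Between human and mouse, 3 of the 8 genes tested were called in progenitors (background 28.8%), 3 of 8 in NEUROG2-positive cells (30.6%), 4 of 9 in motor neurons (16.8%) and 2 of 8 in other neurons (13.8%). ALDH1A2 was too low to be tested in the states with 8. With the replicate block the NEUROG2-positive count became 6, adding CYP26A1, DHRS3 and RARB. Within OLIG2-positive and OLIG2-negative progenitors 1 of 8 was called in human (background 0.733%) and 0 of 8 in mouse (edgeR, background 0.0928%, 3 unadjusted, 0 with DESeq2).
Between NEFM-positive and NEFM-negative motor neurons, a split by a neurofilament gene of maturing neurons, 1 of 8 was called in human (edgeR, background 6.20%, 0 with DESeq2) and 1 of 8 in mouse (edgeR, background 7.68%, 0 with DESeq2). These were CRABP1 in human (0.99 ± 0.24, adjusted p = 0.00168) and CYP26B1 in mouse (2.28 ± 0.60, adjusted p = 0.00407). The NEFM-negative groups held only 12 and 15 human and 9 and 17 mouse cells. CRABP1 was 1025 and 1579 CPM in NEFM-positive and 1467 and 259 in NEFM-negative human motor neurons, so the replicates went opposite ways, and without human replicate 2 the sign turned (-0.33). CYP26B1 was 32.3 and 94.5 in NEFM-positive and 8.77 and 18.5 in NEFM-negative mouse motor neurons, on 1 and 6 UMIs in the negative cells, and that call was lost without mouse replicate 2 (adjusted p = 0.975) and when cells were gated on all their UMIs (0.70, adjusted p = 0.361).

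Other genes of retinoid handling were read from a list of 21, of which 20 were measured. Between motor neurons and progenitors 11 were tested, and 2 rose and 3 fell in human while 4 rose and 4 fell in mouse, with median log2 changes of -0.50 in human and 0.16 in mouse beside -0.09 and -0.06 over all genes. Over all tested genes 19.5% rose and 25.5% fell in human, and 26.3% rose and 29.8% fell in mouse.
FABP5, a fatty acid carrier that also binds retinoic acid, went in opposite directions, with -0.63 ± 0.19 in human (adjusted p = 0.0163) and 1.47 ± 0.19 in mouse (adjusted p = 3.29e-05). The difference between those changes passed (-2.10 ± 0.27, adjusted p = 0.000362). RDH11, a retinal reductase, rose in human (0.97 ± 0.14) and mouse (0.71 ± 0.16) and was higher in human than in mouse cells in each of the 4 states. CYP1B1, a cytochrome P450 that can oxidise retinol, fell in both. Human motor neurons had 0 and 1 UMIs, against 7 and 147 in human progenitors, where replicate 2 was also the one high in mesenchyme markers, and mouse motor neurons had 2 and 8, against 69 and 360 in mouse progenitors.

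Among 13 other receptors and cofactors, 1 rose in human motor neurons and 4 rose and 1 fell in mouse motor neurons, with medians of 0.14 and 0.25. Of all tested genes, 19.5% rose in human, and 26.3% rose and 29.8% fell in mouse. RXRG, a retinoid X receptor that pairs with the retinoic acid receptors, had 72.3 and 40.3 CPM in human motor neurons, against 0.757 and 0.292 in human progenitors. In mouse it had 6.22 and 43.2 in motor neurons and 0 and 3 UMIs in all in progenitors. RXRG passed in human (adjusted p = 3.65e-07) and mouse (adjusted p = 1.88e-07), while RXRA fell in mouse (-1.42 ± 0.30, adjusted p = 0.00149), and that change differed between the species (1.66 ± 0.40, adjusted p = 0.0128).
Of 27 measured genes known to respond to retinoic acid, 13 rose and 5 fell in human motor neurons and 11 rose and 3 fell in mouse, with medians of 0.46 and 0.47, where 19.5% of all tested genes rose and 25.5% fell in human and 26.3% rose and 29.8% fell in mouse. HOXA5, HOXB5, MEIS1, MEIS2 and NR2F2 were among those that rose in both. Those called lower were PAX6 and RARRES2 in both species, CDX1, FGF8 and HOXD4 in human only, and HOXB1 in mouse only. HOXA5, a positional gene of the cervical cord, had 72.9 and 79.8 in human motor neurons, against 238 and 414 in mouse motor neurons (-2.04 ± 0.38, adjusted p = 0.0188). HOXB1, a gene of the hindbrain that retinoic acid induces directly, had 71.6 and 41.6 in human motor neurons, against 4.84 and 0.484 in mouse (4.93 ± 1.06, adjusted p = 0.0265). HOXA5 was thus lower and HOXB1 higher in human, and both differences passed in each of the 4 states. In motor neurons 2 of the 22 tested genes of this list were called higher and 4 lower in human, where 16.8% of all tested genes were called.

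Over the 16 sums of library part and state, the genes most like a given member were found by Pearson correlation of log2(CPM + 1) among 7785 genes with a mean of at least 10. The sums share libraries and fall into species, so the values are a description. CRABP1 was nearest to SYT7, a synaptotagmin (r = 0.94), MAP1LC3A (r = 0.94) and RNF44 (r = 0.93). CYP26A1 was nearest to WEE1, a cell cycle kinase (r = 0.92), EPB41L2 (r = 0.91) and GCFC2 (r = 0.91), and CYP26B1 to ZFP57 (r = 0.98), CFL2 (r = 0.97) and NT5M (r = 0.97).
DHRS3 was nearest to TMEM87A, SPG11 and NFE2L2 (r from 0.96 to 0.97) and RARB to CYB5R4, ANAPC5 and HSPA4L (r from 0.95 to 0.96). For CRABP2 the nearest genes, RPP14, MRPL55 and PMS2, reached only 0.84 to 0.87. RARA was nearest to ITFG1, MAP6 and EBF3 (r from 0.88 to 0.90) and STRA6 to ZBTB8A, SSBP4 and DRAXIN (r from 0.92 to 0.93). ALDH1A2 was below the mean of 10 and has no such list.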

How the data were processed

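Per the submitters' processing notes, reads were processed with Cell Ranger 3.1.0 and the builds mm10 and hg38. The deposited tables hold raw UMI counts per gene and cell, and the gene annotation is not given in the sources used here. Replicates of a species had different numbers of gene entries (32739 and 56832 in human, 27999 and 54087 in mouse), so a level can hold an annotation difference. Cells with under 1000 UMIs, under 500 genes or over 10% mitochondrial UMIs were dropped. Scrublet in scanpy 1.11.5 at an expected doublet rate of 5% removed 13 and 24 human and 5 and 32 mouse cells. The 60 barcodes shared by the species files of the mixed library were left out of both (2 and 1 barcodes shared by other pairs of libraries were kept). This left 2321 and 1805 human and 1811 and 2674 mouse cells, of which 394 and 344 human and 67 and 153 mouse cells had under 7000 UMIs and were placed in no state.

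Counts with all UMIs were summed per library part and state. Levels in CPM are relative to the 15472 common symbols, and a total per sum lay between 1443299 and 28187004 UMIs. Tests used edgeR 4.0.16 (quasi-likelihood, TMM, filterByExpr, Benjamini-Hochberg over all genes, threshold 0.05) in R 4.3.3. States were compared over 16 sums with library part as a block, subsets over 8 sums, and species within a state over 4 sums, 2 against 2. The SE of a log2 change was derived from its F statistic. Genes of the gates are given as no result. Alternatives included DESeq2 1.42.0, and the fits were checked on simulated counts. A fit with a replicate left out had 1 library part in that species, so its spread came from the parts of the other species. Intervals and the floor of 3 counts cover counting error only. The labels do not name separate cultures, so the p-values rest on these library parts alone. For species within a state they measure the spread between library parts. For states and subsets the block takes out the level of each part. Those p-values measure how much the change varies between parts, with 1 estimate of the spread for both species. Both species' parts numbered 1 came from 1 library, and across 7785 genes the deviations of same-numbered parts correlated between species at 0.22 to 0.32 in the 4 states. The species comparisons with the replicate number as a block are printed beside results whose call it changes. Coordinates are from RefSeq (GRCh38.p14) and GENCODE vM21 (GRCm38). Named genes were the 9 members, called genes of the 3 lists (some are not reported here), and the 3 most correlated genes per member. FOXP1, LHX3, ONECUT2, COL1A2, LUM and KRT8 were chosen after values were seen. Members and lists were chosen with earlier results of these data known.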

Additional observations from a re-analysis of the deposited data

Results flagged for a closer look

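CRABP1, CRABP2, CYP26B1 and DHRS3 changed differently from SOX2-positive progenitors to motor neurons in the species, by the test of the difference itself (human change minus mouse change on the log2 scale, edgeR). CRABP1, which rose in both species, differed by 5.60. CRABP2 differed by 1.79 and DHRS3 by 2.05. These 2 genes fell in mouse (-1.40 and -1.88), and their human changes did not pass (0.39 and 0.17). CYP26B1 differed by -2.96, with 2 UMIs in motor neurons of each human replicate. Each of the 4 differences lost its call without the library part as a block (adjusted p from 0.0914 to 0.621).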

How the results depend on the processing

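Over 17 comparisons and 14 alternatives, 1652 of 1773 values of single genes kept their direction and side of the threshold, 52 lost a call, 65 gained one and 4 turned sign. The cause of these changes was not tested. Counts below are of the 9 genes called. Without the block, 0 of 11833 genes of any kind were called between NEUROG2-positive cells and progenitors in either species. Within OLIG2 subsets it was 0 of 10780, and within NEFM subsets 1 of 8468 in human and 0 in mouse. Between motor neurons and progenitors, no replicate block (no library part in the fit) gave 3 in human, 3 in mouse and 0 for the species difference, and leaving out replicates gave 3 to 6, 3 to 7 and 2 to 6. Between NEUROG2-positive cells and progenitors the mouse count was 2 without a filter on low counts, 2 without off-target cells, 2 with doublets kept and 0 without the block, and leaving out replicates gave 0 to 1 in human, 0 to 3 in mouse and 0 to 1 for the difference. Between other and motor neurons an STMN2 gate of 1 UMI gave 1 in human and 1 in mouse, the mouse count was also 1 with DESeq2, without the filter and with the gate on all UMIs, and leaving out replicates gave 0 to 1 in mouse. Within OLIG2 subsets no filter gave 2 in human and 1 in mouse, no block gave 0 in human, and leaving out replicates gave 1 to 3 and 0 to 1. Within NEFM subsets the human count was 0 with DESeq2, without the block and with the gate on all UMIs and 2 with the STMN2 gate of 1. The mouse count was 0 with DESeq2 and without the block and 3 with that gate. Between species, NEUROG2-positive cells gave 6 with DESeq2, without the filter and with the replicate block, and 5 with all 16 sums, the STMN2 gate of 1 or off-target cells left out. Leaving out replicates gave 2 to 4 in progenitors, 2 to 5 in NEUROG2-positive cells, 2 to 3 in motor neurons and 0 to 2 in other neurons.

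Sign turns were ALDH1A2 between human motor neurons and progenitors (-4.99 to 7.77 over left-out replicates), CRABP1 in the human NEFM subsets (-0.33 to 2.59 over left-out replicates), and CYP26A1 (-4.28) and DHRS3 (-1.76) in the mouse NEFM subsets with the STMN2 gate of 1. The count of all genes called between motor neurons and progenitors was 5323 in human and 1912 to 5862 with a replicate left out, and 6635 in mouse and 3417 to 6507. With 2 library parts per species, sums of 0 to 8 UMIs for CYP26A1, CYP26B1 and ALDH1A2 limit what can be read from those genes.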
